A study of Sus scrofa with 61 samples.

Results

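The comparison set the liver of newborn piglets at 1 day post natum (1 dpn) against the liver of fetuses at 94 days post conceptionem (94 dpc), as 1 dpn minus 94 dpc. It used 30 of the 61 arrays of the series, 16 fetal and 14 newborn, each holding the liver RNA of 1 animal, and they were chosen by their titles alone. All animals at both stages were German Landrace offspring of gilts that received a low protein (LP) diet during gestation, so no animal of an adequately fed mother entered the comparison. Arrays of offspring of adequately fed mothers were not analysed here. The fetuses were taken by Caesarean section in one experiment, whereas the piglets were born in another experiment after induction of parturition with prostaglandin, so an effect of age cannot be told apart from one of the experiment. The study took the lightest and the heaviest animal of a litter. The labels give neither the litters nor weight or sex, animals were therefore treated as independent, and p-values may be too small where siblings are alike.

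The fetal liver of the pig makes blood cells as well as plasma proteins, and it receives glucose and amino acids through the placenta. Birth ends that supply: the liver takes on gluconeogenesis, urea formation, bile flow and the clearance of foreign compounds, and it meets milk, fat, oxygen and microbes within hours. Cytochromes P450, beta-oxidation, erythroid and cholesterol genes are named here only where they were among the largest changes, and the other functions of the liver are described as 60 gene lists.

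Levels are log2 signal intensities of a probe-set, in which 1 unit is a factor of 2, and they compare animals and not genes with each other. The level of a stage is given as the median of its animals, with the lowest and the highest animal in parentheses. A change is the mean at 1 dpn minus the mean at 94 dpc, given with ± its standard error (SE) over 16 fetuses and 14 piglets. A gene was called higher or lower where P and the false discovery rate q of limma's moderated test were both at or below 0.05. Of 12257 probe-sets tested, 67.7% were called, 3197 (26.1%) higher and 5101 (41.6%) lower at 1 dpn. The probe-sets that carried a single gene symbol gave 6765 genes, of which 4763 passed the filters on low and invariant signals and 69.3% of those were called, 1617 higher (33.9%) and 1684 lower (35.4%). The median change over all named genes was -0.01. Between the stages a call was thus the rule, and each count below is to be read against these shares. The values of the stages did not overlap for 479 of the genes called, 10.1% of those tested, with 5.79% higher and 4.26% lower.

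All 9 hepatocyte markers looked up were bright at both stages, from the 96.6th percentile of the array upward. Markers of pancreas and muscle were lower, with INS at the 15.1 percentile in the fetuses and the 12.8 percentile in the piglets, and with CKM highest among them at 68.2 and 45.5. The log2 difference between the 3' and the 5' probe-set of GAPDH is a sign of RNA integrity. It was 1.05 ± 0.29 (SD) in the fetuses and 0.39 ± 0.27 (SD) in the piglets. The lowest fetus had 0.77 and the median piglet 0.34, so the difference went largely with the stage. A fit with this difference as a covariate was run as an alternative, but it cannot tell RNA integrity apart from age. The 2 other scalings of the arrays, quantile normalization and subtraction of array medians, brought the median of all genes to 0.07 and 0.14. The share of higher among called genes was 55.8% and 61.4%, against 49.0% as deposited. After quantile normalization 1783 of 4678 tested genes were higher and 1411 lower, and after subtraction of array medians 2046 and 1285 of 4897. List medians and counts under these scalings are to be read against these values. Among the piglets, the animal numbered 29 stood apart: its mean over the interferon response genes was 3.11 above the fetal mean where the next animal had 1.40, and its mean over the lipid synthesis genes was -1.37 where the next had -0.49.

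The largest rises were in secreted plasma proteins, in amino acid and drug metabolism and in glycerol use. HPD, the dioxygenase of tyrosine breakdown, lay at 6.16 (0.93 to 7.90) in the fetuses and at 13.60 (12.56 to 14.53) in the piglets. This was a change of 8.13 ± 0.53 (q = 6.41e-15), and the highest fetus lay far below the lowest piglet. The lowest fetal values were far under the median of their arrays, and with each value raised to at least that median the change was 6.17. LRG1, a leucine-rich glycoprotein of plasma, went from 7.99 (7.14 to 8.64) to 13.34 (12.11 to 13.93), a change of 5.28 ± 0.17 (q = 8.04e-22). No piglet came near the fetal range. CRP, the acute phase protein that binds phosphocholine on microbes, lay at 6.17 (2.54 to 7.02) in the fetuses and 11.89 (9.93 to 14.13) in the piglets, a change of 6.25 ± 0.44, or 4.70 with the floor at the array median.

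GK, the glycerol kinase that feeds glycerol into glucose and triglyceride formation, rose from 6.94 (6.04 to 7.25) to 11.82 (9.75 to 12.62), a change of 4.75 ± 0.24. GNMT, which uses S-adenosylmethionine to methylate glycine, rose from 7.33 (6.11 to 8.17) to 11.60 (10.35 to 12.67), a change of 4.16 ± 0.23. Neither gene had overlapping stages. The sulfotransferases SULT2A1 (4.21 ± 0.31) and SULT1E1 (5.82 ± 0.67), which conjugate steroids and estrogens, rose as well. So did AZGP1, a zinc-binding glycoprotein (4.50 ± 0.16), the complement component C4A (3.64 ± 0.13), the apolipoprotein APOA4 (4.57 ± 0.36), SDF2L1 of the endoplasmic reticulum (3.54 ± 0.18) and TP53INP2, a regulator of autophagy (5.60 ± 0.36). The remaining 3 of the 15 largest rises were the cytochromes CYP2E1 (5.27 ± 0.41) and CYP3A39 (4.08 ± 0.33) and LOC396684 (3.26 ± 0.13). With each value raised to at least its array median, the changes were 3.25 for SULT1E1, 3.22 for TP53INP2 and 3.37 for APOA4. They were 4.21 for GK, 3.91 for GNMT and 3.64 for CYP3A39.

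The largest falls held a spermadhesin, lipid synthesis genes and a chemokine. PSP-II, known as a protein of boar seminal plasma, lay at 11.81 (11.38 to 12.66) in the fetuses and at 6.01 (3.17 to 7.08) in the piglets, a change of -6.16 ± 0.28 (q = 1.78e-18). Its fetal signals were in the upper range of their arrays and its newborn signals below the array median. SCD, the desaturase that makes monounsaturated fatty acids, fell from 14.79 (14.30 to 14.98) to 11.43 (10.17 to 13.23), a change of -3.14 ± 0.20. PNPLA3, a lipase of lipid droplets, went from 10.00 (8.86 to 11.07) to 5.23 (1.57 to 6.86), a change of -5.20 ± 0.40 that came to -2.80 with the floor. CXCL12, the chemokine that holds blood stem cells in their niche, went from 13.02 (12.09 to 13.24) to 10.59 (8.88 to 11.52), a change of -2.27 ± 0.19, and VCAM1, an adhesion molecule of the same niche, changed by -2.08 ± 0.18. In bulk tissue fewer cells of a type and less RNA per cell cannot be told apart.

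Others among the 15 largest falls were SLC2A5, the fructose transporter (-4.10 ± 0.39), ACSL4, an acyl-CoA synthetase (-2.95 ± 0.22), ISYNA1, which makes inositol phosphate (-2.64 ± 0.23), and the MAP kinase phosphatase DUSP9 (-2.61 ± 0.14). The blood group gene RHCE (-4.83 ± 0.47) and the sterol genes INSIG1 (-2.51 ± 0.26) and MSMO1 (-2.15 ± 0.19) belong to the functions set aside above. ZNF277, MAGEH1 and MLLT3 changed by -2.37 ± 0.15, -2.10 ± 0.11 and -2.55 ± 0.20. With the floor at the array median the changes were -4.71 for PSP-II, -3.37 for RHCE, -2.44 for SLC2A5 and -2.09 for MLLT3. Of the 30 genes with the largest rises and falls, 13 had a stage mean below the array median. None of these 30 genes lost its call under any alternative that was run.

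**Figure D1:**
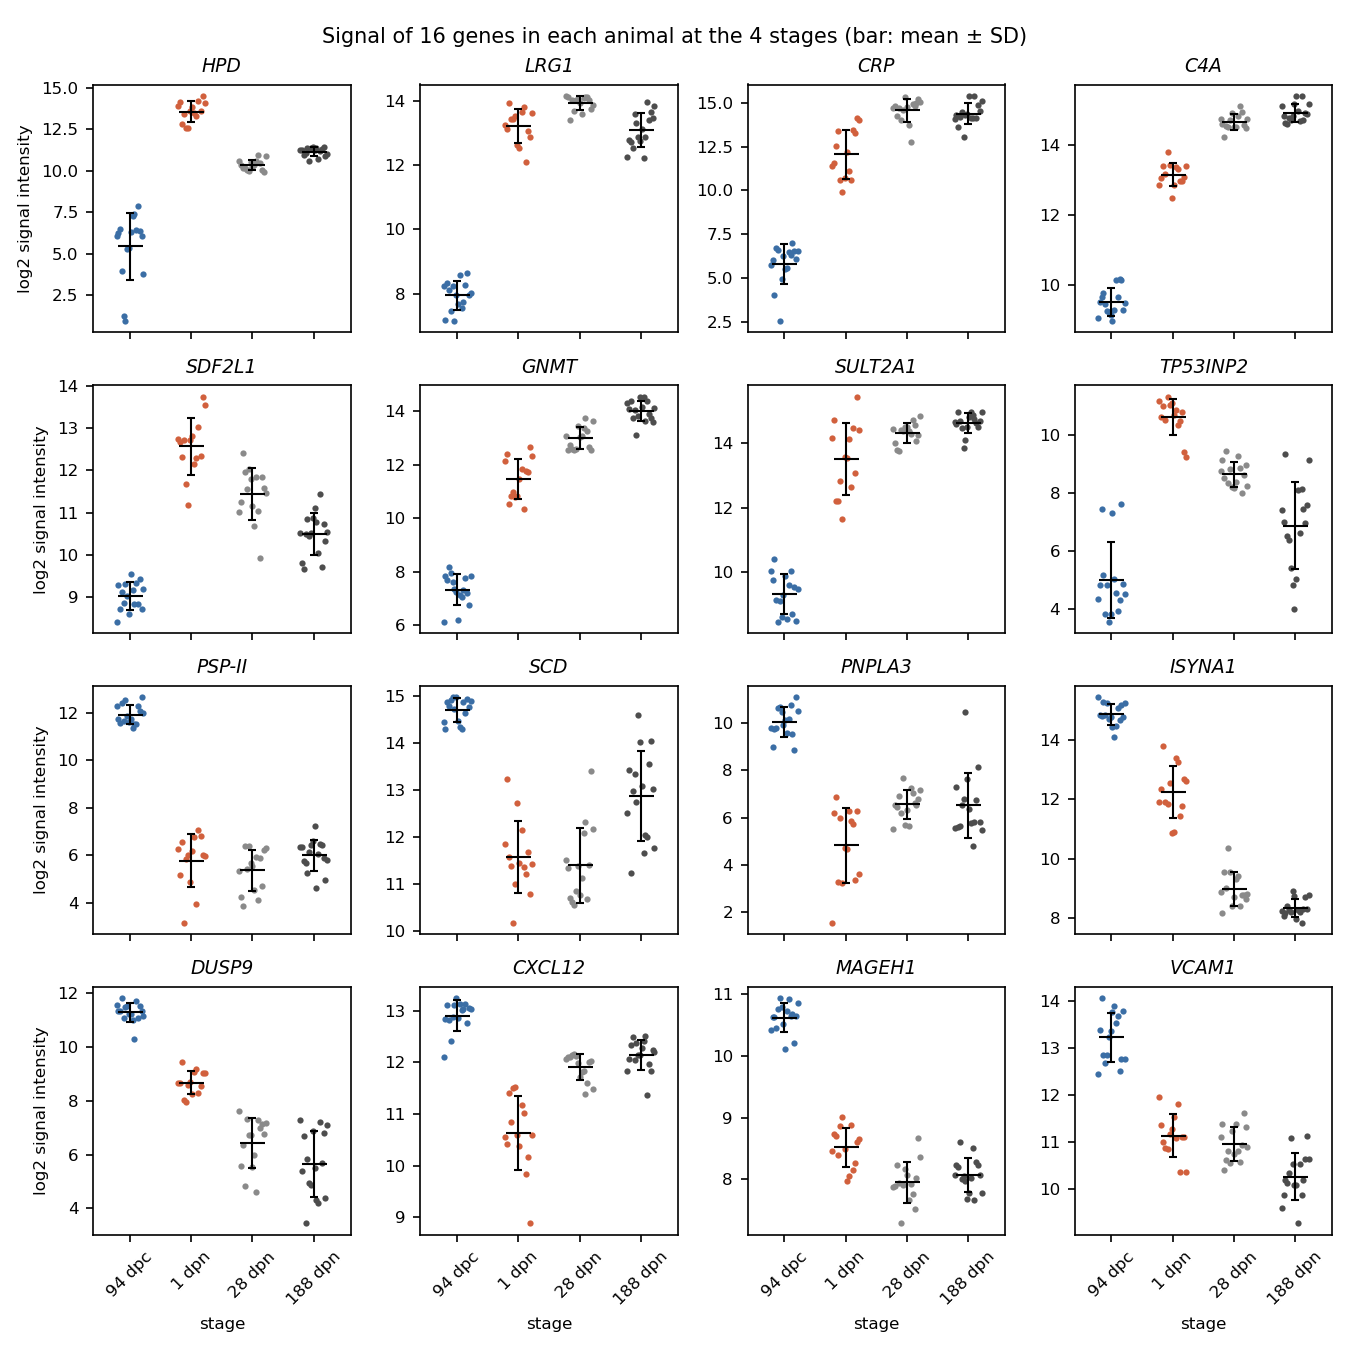
Log2 signal intensity of 16 genes in each animal at the 4 stages (points), with the mean and SD of the animals of a stage as a bar. HPD and LRG1 lie higher in every newborn piglet than in any fetus, GNMT goes on to 14.02 at 188 dpn, and SDF2L1 comes down to 10.49.

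**Figure D2:**
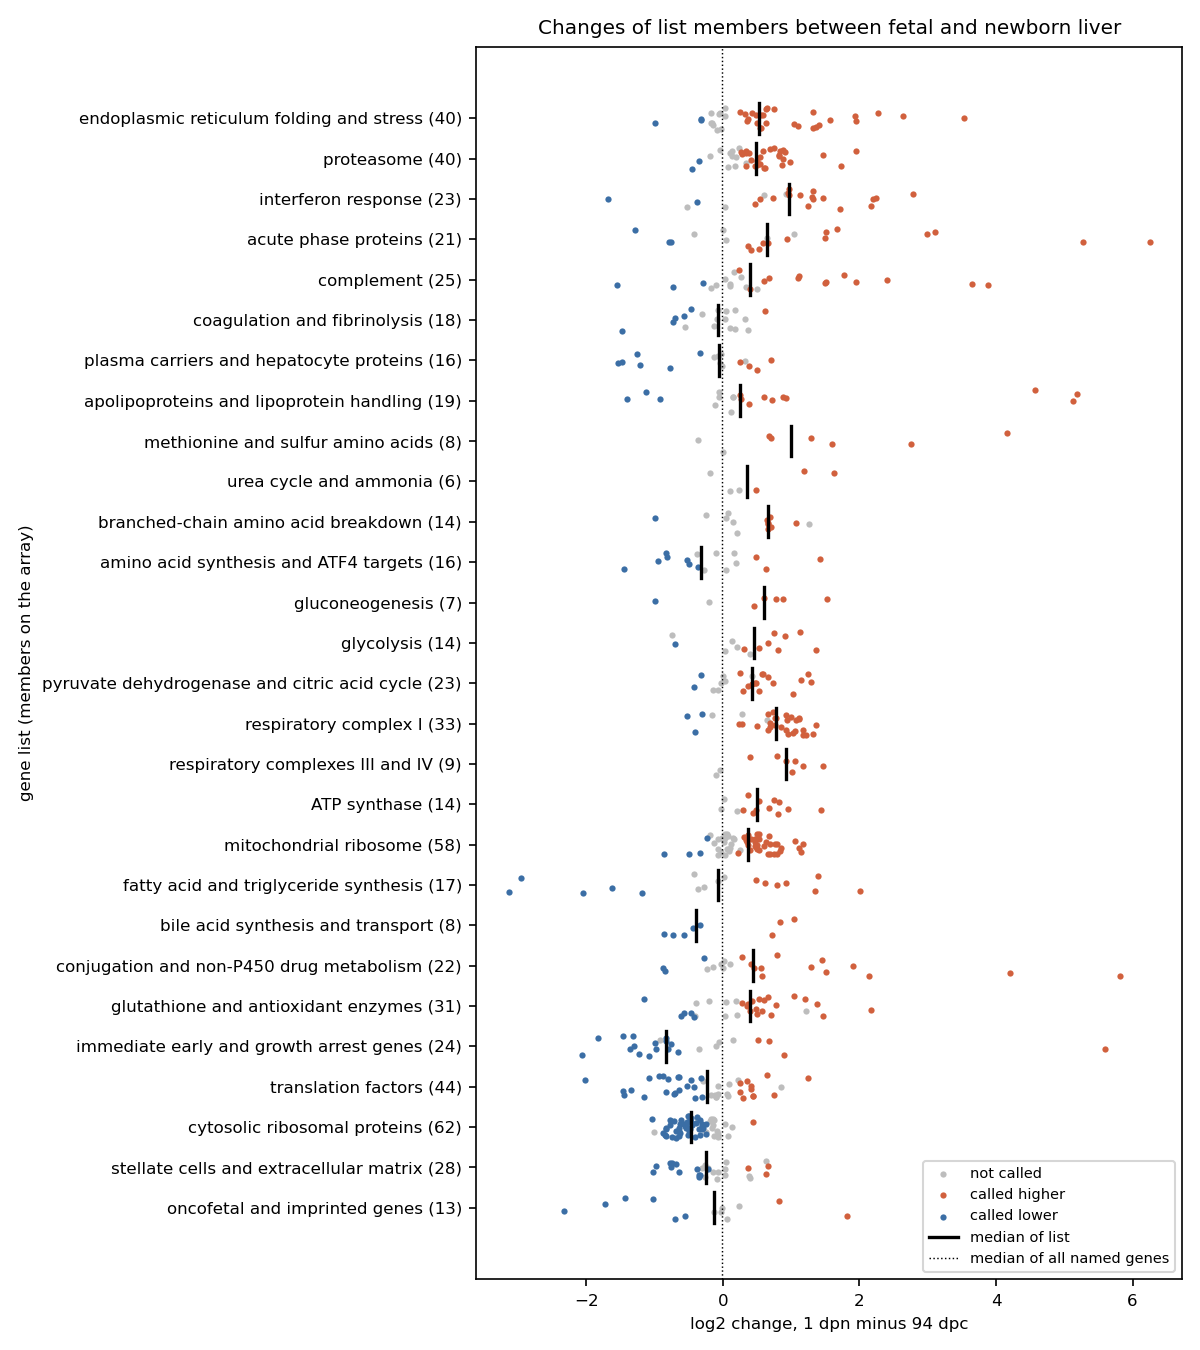
Log2 change of each list member, 1 dpn minus 94 dpc, for 28 gene lists grouped by function, with the number of members on the array in parentheses, the list median as a bar and calls by colour. Respiratory complex I (median 0.78) lies to the right of 0 and cytosolic ribosomal proteins (median -0.47) lie to the left.

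Genes of protein folding and quality control in the endoplasmic reticulum were higher in newborn liver, with cofactors of the chaperone BiP among the largest changes. Of 40 such genes on the array, 32 were tested, 27 were called higher and 3 lower, and the median over all 40 was 0.52. For 11 of the higher genes the stages did not overlap. CRELD2, a secreted folding factor, lay at 9.67 (9.09 to 9.89) in the fetuses and 12.25 (11.10 to 14.06) in the piglets, a change of 2.63 ± 0.20 (q = 3.03e-13). DNAJB11, a co-chaperone of BiP, lay at 9.62 (9.23 to 9.95) and 12.05 (10.44 to 12.98), a change of 2.27 ± 0.19, and HYOU1, an exchange factor of the same chaperone, at 10.30 (9.88 to 10.64) and 12.22 (11.14 to 13.50), a change of 1.95 ± 0.16. The fetuses lay within 1 unit of each other in all of these genes, while the piglets spread over more than 2 units. PDIA4, a disulfide isomerase, changed by 1.93 ± 0.11, with all 3 of its probe-sets called higher.

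BiP itself, HSPA5, was bright at both stages, at 14.26 (13.82 to 14.54) in the fetuses and 14.80 (14.05 to 15.61) in the piglets, and changed by 0.55 ± 0.11, a call that was lost with the GAPDH covariate. The lectin chaperones went the other way: CALR, calreticulin, changed by -0.32 ± 0.11 and CANX, calnexin, by -0.31 ± 0.09, although 3 of the 6 probe-sets of CANX were called higher, and both calls were lost after subtraction of array medians. STT3B, a catalytic subunit of N-glycosylation, fell by more (-0.99 ± 0.10). XBP1, the transcription factor of the unfolded protein response, did not pass the filter on invariant signals, at 13.54 (13.25 to 13.81) in the fetuses and 13.39 (13.06 to 13.71) in the piglets. With the covariate 18 members of the list were called higher and 3 lower.

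The proteasome, which degrades ubiquitin-tagged proteins, was also higher: of 40 subunits and assembly factors, 37 were tested, 28 called higher and 2 lower (median 0.48). The largest changes included the inducible subunits that replace the catalytic ones under interferon. PSMB10 rose from 9.25 (8.57 to 9.57) to 11.05 (10.54 to 11.60), a change of 1.94 ± 0.11 (q = 5.83e-16) without overlap, and PSMB8 from 8.21 (6.85 to 8.66) to 9.69 (8.20 to 10.30), a change of 1.47 ± 0.18 with overlap. PSMB3, a constitutive subunit of the core, rose as well (1.73 ± 0.13). The lower genes were PSMD10, an assembly chaperone of the regulatory particle (-0.46 ± 0.12), and the assembly factor PSMG3 (-0.34 ± 0.13), whose call was lost under both other scalings and with the covariate. In the per-animal means of the list the lowest piglet (0.14 relative to the fetal mean) lay above the highest fetus (0.11), and with the covariate 20 members were higher and 3 lower.

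Acute phase proteins, which the liver secretes in response to cytokines, were mostly higher in the piglets. Of 21 on the array 18 were tested, 13 were called higher and 3 lower (median 0.64). APCS, serum amyloid P, lay at 11.80 (9.92 to 12.36) in the fetuses and 14.86 (14.04 to 15.17) in the piglets, a change of 3.10 ± 0.21 (q = 1.13e-14). LBP, which presents lipopolysaccharide to CD14, lay at 11.16 (9.58 to 11.75) and 13.88 (13.35 to 14.40), a change of 2.99 ± 0.18. For both genes every piglet lay above every fetus. HP, haptoglobin, the binder of free hemoglobin, was already among the brightest genes of the fetuses, at 15.32 (14.94 to 15.90), and rose to 16.37 (15.87 to 16.57), a change of 0.94 ± 0.10. STAT3, the transcription factor that carries the interleukin-6 signal, changed by 1.67 ± 0.11. The 3 lower members were heavy chains of the inter-alpha-trypsin inhibitor, which bind hyaluronan: ITIH1 (-0.79 ± 0.13), ITIH2 (-1.28 ± 0.12) and ITIH3 (-0.76 ± 0.12).

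Complement genes rose in 13 of 24 tested members and fell in 3, with 25 on the array and a median of 0.40. C2, the protease of the classical convertase, went from 7.06 (3.66 to 7.60) to 10.48 (9.66 to 11.32), a change of 3.88 ± 0.32, and C1R, which starts the classical pathway, from 11.32 (9.93 to 12.66) to 13.66 (13.12 to 14.29), a change of 2.40 ± 0.24. Neither gene overlapped between the stages. MBL2, the mannose-binding lectin, was dim in the fetuses, at 5.94 (3.94 to 7.06), and reached 7.84 (6.65 to 9.07) in the piglets, a change of 1.95 ± 0.27, a call that ended with a stricter filter on low signals. C3, the central component, was bright throughout and changed by 0.68 ± 0.11. The lower genes were the cell-bound inhibitors CD55 (-1.54 ± 0.32) and CD59 (-0.29 ± 0.13) and the protease CFD (-0.73 ± 0.12). The call of CD55 was lost in 8 of the 30 fits that left out an animal and that of CD59 under both other scalings.

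Genes induced by interferon were higher in newborn liver. Their spread was wider there than in the fetuses with the piglet numbered 29 included, and it was not taken without that piglet. Of 23 on the array 20 were tested, 17 were called higher and 2 lower, and the median was 0.97. ISG15, a ubiquitin-like modifier, lay at 7.75 (5.85 to 9.36) in the fetuses and 10.17 (8.93 to 15.34) in the piglets, a change of 2.79 ± 0.42 (q = 1.81e-07). MX1, a GTPase that blocks viruses, lay at 7.71 (5.45 to 9.58) and 9.63 (8.10 to 14.60), a change of 2.24 ± 0.47. The highest values of both genes came from the piglet numbered 29, and without it the changes were 2.42 and 1.87. Without that piglet 15 members were called higher, the median was 0.86, and ISG15 and MX1 kept their calls. GBP1 (2.21 ± 0.20), a GTPase induced mainly by interferon gamma, and ISG20 (2.16 ± 0.36), an exonuclease, rose too, the latter with a call that ended under the stricter filter.

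IRF1, a transcription factor of the response, was the only one of the higher members without overlap between the stages, at 8.97 (8.59 to 9.53) in the fetuses and 10.30 (9.76 to 11.02) in the piglets with a change of 1.31 ± 0.11. The lower members were CXCL9, a chemokine that attracts T cells (-1.68 ± 0.33), and STAT2, a subunit of the factor activated by type I interferon (-0.39 ± 0.11), whose call was lost with the covariate. With the GAPDH covariate 11 members were called higher and 1 lower. Antigen presentation genes were mixed, with 6 of 16 tested higher and 4 lower of 19 on the array. SLA-2, a class I molecule, changed by 1.11 ± 0.16. The lower members were the class II genes SLA-DRA (-0.97 ± 0.21), SLA-DQB1 (-0.79 ± 0.26) and SLA-DRB1 (-0.55 ± 0.25), and B2M, the light chain of class I molecules (-0.61 ± 0.15). The call of SLA-DQB1 was lost with the covariate, and that of SLA-DRB1 under both other scalings and in 6 of the 30 fits without an animal. B2M lost its call with the covariate, and the change in the average over its 9 probe-sets was 0.019.

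**Figure D3:**
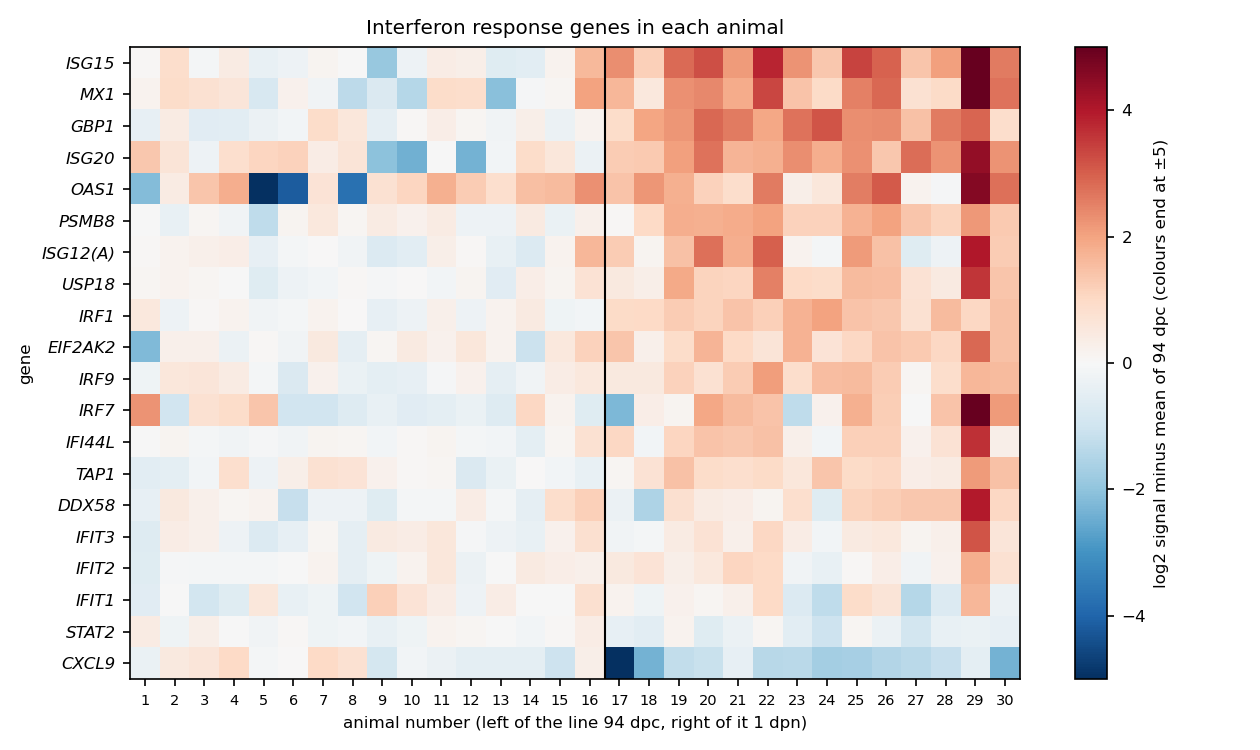
Log2 signal of the interferon response genes in each animal (columns) minus the gene's mean at 94 dpc, with fetuses to the left and piglets to the right of the line. The piglet numbered 29 is the highest for many of the genes, and IRF1 is raised in all 14 piglets.

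Coagulation factors and plasma carriers are also made by hepatocytes. Of 18 coagulation genes 13 were tested, 1 was called higher and 5 lower (median -0.08). After subtraction of array medians the counts were 5 and 5, with a median of 0.069 against 0.14 for all named genes. HRG, a histidine-rich glycoprotein that modulates clotting, fell from 15.60 (14.92 to 16.12) to 14.31 (11.76 to 15.03), a change of -1.48 ± 0.24, and PROC, the anticoagulant protein C, changed by -0.74 ± 0.12. Among 16 carriers 14 were tested, 4 were called higher and 6 lower (median -0.06, and 0.23 with the covariate). Under the other scalings the median was 0.011 and 0.083, against 0.07 and 0.14 for all named genes. SERPINA7, which carries thyroxine, lay at 13.83 (13.46 to 14.35) in the fetuses and 12.35 (11.41 to 12.80) in the piglets, a change of -1.54 ± 0.13 (q = 1.44e-12) without overlap. SERPINA6, which carries cortisol, went from 12.71 (12.04 to 13.73) to 11.54 (10.51 to 12.77), a change of -1.22 ± 0.22 with overlap. SELENOP, the carrier of selenium, changed by -0.77 ± 0.09, and TTR, another thyroxine carrier, by -0.33 ± 0.13. The call of TTR was lost under both other scalings and with the covariate.

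Apolipoproteins and enzymes of lipoproteins moved in both directions, with 10 of 18 tested members higher and 3 lower of 19 on the array (median 0.25). ANGPTL4, an inhibitor of lipoprotein lipase, was below the array median in the fetuses, at 4.61 (2.21 to 7.25), and lay at 9.60 (8.43 to 10.90) in the piglets, a change of 5.13 ± 0.43. PON3, a lactonase bound to high density lipoprotein, behaved likewise, at 3.69 (2.62 to 5.68) in the fetuses and 8.85 (6.75 to 11.40) in the piglets with a change of 5.19 ± 0.43. The lower genes were APOF, an inhibitor of lipid transfer (-1.41 ± 0.18), APOM, which carries sphingosine phosphate (-1.13 ± 0.12), and LIPC, the hepatic lipase (-0.92 ± 0.14). The main structural apolipoproteins APOA1 (-0.06) and APOB (0.12) were not called.

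Enzymes of methionine and sulfur amino acid metabolism were higher in 6 of 8 members and lower in 0, with a median of 1.00. MAT2A, the methionine adenosyltransferase found outside the adult liver, was not called (-0.36 ± 0.19), and 1 member was called lower after quantile normalization, in the fit of all 4 stages and in 3 of the 30 fits without an animal. CDO1, which oxidizes cysteine toward taurine and sulfate, lay at 10.22 (9.28 to 11.84) in the fetuses and 13.12 (12.13 to 14.34) in the piglets, a change of 2.75 ± 0.25 (q = 1.44e-11). CTH, which releases cysteine from cystathionine, went from 11.41 (10.70 to 12.35) to 13.14 (12.31 to 13.88), a change of 1.59 ± 0.19, and BHMT, which remakes methionine with betaine, from 12.24 (11.75 to 12.84) to 13.57 (12.75 to 14.34), a change of 1.29 ± 0.14. The ranges of CDO1 were apart, while those of CTH and BHMT met at their edges. MAT1A, which makes S-adenosylmethionine, was not called, at 12.55 (12.26 to 13.22) in the fetuses and 12.64 (12.11 to 13.16) in the piglets.

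The urea cycle was split along its course. ASS1, which condenses citrulline and aspartate, rose from 13.17 (12.57 to 13.69) to 14.85 (14.10 to 15.53), a change of 1.62 ± 0.14 (q = 3.48e-12), and the next enzyme, ASL, from 10.18 (9.65 to 10.94) to 11.51 (10.66 to 12.01), a change of 1.19 ± 0.13. The mitochondrial enzymes CPS1 (0.11 ± 0.16) and OTC (-0.19 ± 0.17) were not called. ARG1, which releases urea, had a change of 0.48 ± 0.21, but the call was lost after quantile normalization and in 7 of the 30 fits without an animal, and the change was -0.022 with the covariate. In all, 3 of 6 members were higher and 0 lower (median 0.36).

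In the other amino acid groups the counts of higher members are read against the same 33.9%, which the shares for tyrosine and tryptophan breakdown were near. In the breakdown of branched chain amino acids 7 of 13 tested genes were higher and 1 lower of 14 on the array (median 0.65), among them BCKDHA, a subunit of the committed dehydrogenase (0.71 ± 0.08). Of 5 genes of tyrosine breakdown 2 were higher, HPD among them, while TAT, the aminotransferase that opens the pathway, was not called, at 14.17 (12.97 to 15.09) in the fetuses and 13.67 (11.06 to 14.76) in the piglets with a change of -0.51 ± 0.28. The list of tryptophan breakdown had 1 of 3 higher, and 2 without the piglet numbered 29. Transaminases and partners had 4 of 7 tested members higher and 0 lower, of 9 on the array, and 2 with the covariate. Genes that ATF4 induces under amino acid shortage leaned lower, with 3 of 14 higher and 7 lower of 16 on the array (median -0.32, and 1 and 3 with the covariate). ASNS, asparagine synthetase, changed by -0.36 ± 0.12, a call lost after subtraction of array medians and with the covariate, and SLC3A2, the heavy chain of amino acid exchangers, by 0.63 ± 0.12.

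Gluconeogenesis was higher in 5 of 7 genes and lower in 1 (median 0.61). PC, pyruvate carboxylase, rose from 11.14 (10.82 to 11.89) to 12.64 (12.39 to 13.55), a change of 1.53 ± 0.13 (q = 1.54e-12), with no fetus as high as the lowest piglet. PCK1, which makes phosphoenolpyruvate, ranged widely in the fetuses, at 12.83 (9.31 to 14.24), and narrowly in the piglets, at 13.44 (12.69 to 14.28), with a change of 0.88 ± 0.36. FBP1, the fructose bisphosphatase of liver, changed by 0.78 ± 0.13, and FBP2, that of muscle, by -0.996 ± 0.35, the latter a call that was lost with the covariate. Galactose from milk lactose enters metabolism through GALK1 and GALT, which changed by 0.97 ± 0.12 and 1.98 ± 0.12. GALT lay at 9.41 (9.05 to 10.08) in the fetuses and 11.41 (10.65 to 11.86) in the piglets (q = 1.12e-15).

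In the list of fructose and galactose use 4 of 6 tested genes were higher and 1 lower, of 7 on the array (median 0.69). Glycolysis had 8 of 12 tested genes higher and 1 lower, of 14 (median 0.46), with PGK1 at 0.52 ± 0.10 and LDHA at 0.67 ± 0.15, both of which lost their calls with the covariate. Glycogen metabolism had 2 of 6 tested genes higher and 3 lower, of 9 (median 0.03). The glycogen phosphorylase PYGL did not pass the filter on invariant signals, at 12.59 (12.29 to 12.81) in the fetuses and 12.48 (11.91 to 13.05) in the piglets. The pentose phosphate pathway had 3 of 5 tested genes higher and 0 lower, of 7 (median 0.10).

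Genes of the respiratory chain and the citric acid cycle were mostly higher in newborn liver. Of 33 subunits of complex I, the entry of NADH electrons, 32 were tested, 27 called higher and 3 lower, with a median of 0.78 and 9 genes without overlap. NDUFB11 rose from 11.37 (11.11 to 11.82) to 12.86 (12.13 to 13.12), a change of 1.37 ± 0.09 (q = 4.63e-15). The subunits NDUFC1 (-0.30 ± 0.12), whose call was lost after subtraction of array medians, and NDUFC2 (-0.42 ± 0.09) were lower, as was NDUFA1, whose probe-sets were called in both directions (-0.53 ± 0.23). The call of NDUFA1 was lost in 4 of the 30 fits without an animal, among them that without the piglet numbered 29 (-0.38), where 28 members were higher and 2 lower. With the covariate 25 members were higher and 2 lower, with a median of 0.54. Of 9 genes of complexes III and IV 8 were tested, 7 were higher and 0 lower (median 0.93), and with the covariate 4 were higher. COX7A2, a subunit of cytochrome oxidase, rose from 12.45 (11.86 to 13.02) to 13.87 (13.55 to 14.52), a change of 1.47 ± 0.10.

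Of 14 genes of ATP synthase on the array 11 were tested and 11 were higher (median 0.50), 8 with the covariate. ATP5G1, which encodes its membrane ring, rose from 12.15 (11.73 to 12.75) to 13.72 (12.62 to 14.22), a change of 1.43 ± 0.13. Pyruvate dehydrogenase and the citric acid cycle had 15 of 22 tested genes higher and 2 lower, of 23 (median 0.43, and 0.12 with the covariate). IDH2, the NADP-linked isocitrate dehydrogenase, lay at 11.85 (11.72 to 12.29) and 13.23 (12.94 to 13.55), a change of 1.29 ± 0.07 (q = 4.04e-16), and PDK4, the kinase that shuts pyruvate dehydrogenase, at 8.61 (7.43 to 9.62) and 9.88 (7.94 to 11.15), a change of 1.24 ± 0.26. The lower genes were PDHB (-0.32 ± 0.11) and SUCLG2 (-0.43 ± 0.08), and both calls were lost after subtraction of array medians. Mitochondrial ribosomal proteins had 34 of 48 tested members higher and 4 lower, of 58 (median 0.37), and with the covariate 19 higher and 4 lower (median 0.15).

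Fatty acid and triglyceride synthesis changed in both directions, with 7 of 15 tested genes higher and 5 lower, of 17 on the array. The median was -0.07, and 0.073 after subtraction of array medians, where that of all named genes was 0.14. FASN, which makes palmitate, fell from 12.28 (11.58 to 12.57) to 10.19 (9.55 to 10.61), a change of -2.05 ± 0.12 (q = 4.04e-16) without overlap, and DGAT2, which completes triglycerides, from 11.42 (10.76 to 12.09) to 10.07 (8.09 to 10.88), a change of -1.63 ± 0.22. AGPAT2, which acylates lysophosphatidate, rose from 7.93 (6.61 to 8.66) to 9.90 (9.39 to 10.76), a change of 2.00 ± 0.17, and ACSL5, which activates fatty acids, from 11.36 (10.97 to 11.59) to 12.64 (12.37 to 12.92), a change of 1.35 ± 0.08. Related enzymes moved apart within the list: among acyl-CoA synthetases ACSL1 was higher (0.92 ± 0.10) and ACSL4 lower, among the last acyltransferases DGAT1 was higher (0.62 ± 0.10) and DGAT2 lower, and among the lipins, which make diacylglycerol, LPIN2 was higher (0.79 ± 0.11) and LPIN1 lower (-1.19 ± 0.17). Without the piglet numbered 29 the counts were again 7 and 5.

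Lipid droplet genes were higher in 7 of 9 tested members and lower in 1, of 10 (median 0.74). PLIN2, which coats the droplets, rose from 12.02 (11.06 to 12.54) to 13.17 (12.49 to 14.42), a change of 1.38 ± 0.17. Ketone formation was covered by 2 genes only, of which BDH1, which makes hydroxybutyrate, rose (1.45 ± 0.15). Bile acid synthesis and transport had 3 of 8 genes higher and 5 lower (median -0.39, and 2 and 3 with the covariate). ABCC2, the canalicular exporter of conjugates such as bilirubin glucuronide, rose from 9.26 (8.34 to 9.79) to 10.24 (9.82 to 10.96), a change of 1.05 ± 0.13 (q = 7.30e-09), while ABCB11, the bile salt export pump, went from 10.10 (9.46 to 10.59) to 9.17 (8.05 to 11.14), a change of -0.86 ± 0.20, a call that was lost with the covariate. Peroxisomal genes had 6 of 15 tested members higher and 4 lower, of 18 (median 0.25), with CRAT, carnitine acetyltransferase, at 1.82 ± 0.14 and the catalase CAT among those that did not vary enough to be tested.

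Conjugation and other drug metabolism apart from cytochromes P450 was higher in 13 of 20 tested genes and lower in 3, of 22 (median 0.44). Beside the sulfotransferases named above, FMO5, a flavin monooxygenase, rose from 6.70 (5.62 to 7.74) to 8.69 (6.36 to 9.85), a change of 1.91 ± 0.26, and SULT1A3, which sulfates phenols, changed by 1.52 ± 0.25. EPHX2, which hydrolyses lipid epoxides, was lower (-0.85 ± 0.13). The antioxidants had 18 of 29 tested genes higher and 5 lower, of 31 (median 0.40). SOD1, the cytosolic superoxide dismutase, rose from 13.00 (12.59 to 13.24) to 14.38 (13.71 to 14.86), a change of 1.38 ± 0.09 (q = 2.34e-14), and GPX3, the secreted glutathione peroxidase, from 6.72 (3.86 to 7.62) to 8.72 (7.63 to 9.77), a change of 2.16 ± 0.26. Both lay apart between the stages.

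NQO1, a quinone reductase induced through NRF2, lay at 7.64 (6.04 to 8.64) in the fetuses and 9.04 (7.55 to 13.87) in the piglets, a change of 2.14 ± 0.43, where the highest value was several units above the median. GCLC, the rate-limiting enzyme of glutathione synthesis, had a change of -1.15 ± 0.21, but its probe-sets were called in both directions and their mean changed by 0.090. The peroxiredoxin PRDX6 was lower (-0.62 ± 0.12).

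Genes of glucocorticoid action changed in both directions, with 6 of 13 higher and 5 lower (median -0.38, and 0.16 with the probe-sets of each gene averaged). HSD11B1, which turns cortisone into active cortisol, rose from 11.80 (11.37 to 12.30) to 14.14 (13.37 to 14.70), a change of 2.28 ± 0.12 (q = 6.46e-17), and each piglet lay above all fetuses. HSD11B2, which inactivates cortisol, was dim at both stages, at 5.93 (2.18 to 6.69) in the fetuses and 7.27 (6.07 to 8.15) in the piglets with a change of 2.11 ± 0.41, and its call ended with the floor, with a stricter filter and in 7 of the 30 fits without an animal. FKBP5, a co-chaperone that the receptor induces, rose from 7.34 (6.44 to 7.80) to 8.50 (7.83 to 9.90), a change of 1.33 ± 0.17. The receptor NR3C1 itself had a change of -0.38 ± 0.14, whose call was lost under both other scalings and with the covariate and which became 0.16 with its probe-sets averaged.

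In the list of insulin-like growth factors and growth hormone 2 of 9 tested genes were higher and 4 lower, of 16 on the array (median -0.43, and 1 and 1 with the covariate). GHR, the growth hormone receptor, was dim in the fetuses, at 4.20 (2.49 to 7.03), and lay at 7.77 (6.33 to 8.98) in the piglets, a change of 3.19 ± 0.36, a call that ended with the stricter filter. IGFBP2, a binding protein, fell from 13.60 (12.67 to 14.45) to 12.39 (11.63 to 13.50), a change of -1.05 ± 0.17. IGF2, the fetal growth factor, was bright at both stages, at 15.20 (14.77 to 15.84) in the fetuses and 14.64 (14.28 to 15.14) in the piglets with a change of -0.55 ± 0.11, and its call was lost with the covariate. IGF1, the growth factor that growth hormone induces in liver, was not called (0.41 ± 0.24), but without the piglet numbered 29 its change was 0.57 (q = 0.0026) and was called, which made 3 members higher.

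Immediate early and growth arrest genes were lower in 15 of 20 tested members and higher in 4, of 24 on the array (median -0.84), with 12 and 5 under the covariate. GADD45G, a stress sensor that halts growth, fell from 12.07 (9.36 to 13.13) to 9.45 (8.41 to 10.23), a change of -2.06 ± 0.36 (q = 2.46e-06). EGR1, a zinc finger factor induced within minutes by growth factors and stress, lay at 11.34 (8.85 to 12.32) and 9.11 (8.55 to 10.81), a change of -1.82 ± 0.28, and FOS, a subunit of AP-1, at 11.26 (8.33 to 13.52) and 9.81 (8.86 to 10.58), a change of -1.29 ± 0.45. In each of these genes the fetuses spread over more than 3 units and reached down into the newborn range. MYC, a driver of growth and ribosome formation, changed by -1.32 ± 0.19. The higher members were TP53INP2, named above (5.60), and CDKN1A (0.90), BTG2 (0.68) and IER5 (0.51), so growth arrest genes did not all fall.

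Liver transcription factors had 5 of 16 tested genes higher and 6 lower, of 22 (median -0.10). After subtraction of array medians the median was 0.049, against 0.14 for all named genes. The lower calls came to 3 with the covariate and to 1 with the probe-sets of each gene averaged. CEBPA, which holds hepatocytes in the differentiated state, changed by 0.58 ± 0.14, a call that was lost with the covariate. HNF4A, the main regulator of hepatocyte genes, did not vary enough to be tested, at 12.20 (11.73 to 12.53) in the fetuses and 12.19 (11.86 to 12.70) in the piglets. PPARA, the fatty acid sensor that induces oxidation genes, was below the array median in all fetuses, at 3.55 (2.31 to 5.65), and lay at 7.51 (6.47 to 7.91) in the piglets, a change of 3.79 ± 0.28. Its call ended with the floor, with the stricter filter and with its probe-sets averaged. Hypoxia genes were lower in 5 of 10 tested members and higher in 1, of 13 (median -0.27), with 2 lower after subtraction of array medians. HIF1A, the oxygen-regulated factor itself, changed by -0.71 ± 0.10, and the glucose transporter SLC2A3 by -0.54 ± 0.21, a call lost under both other scalings. Clock genes had 1 of 7 higher and 5 lower (median -0.39), and both other scalings and the covariate left 2 lower, and 3 were lower without the piglet numbered 29.

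Cytosolic ribosomal proteins were lower in nearly every member tested. Of 62 on the array 47 were tested, 45 called lower and 1 higher, with a median of -0.47. RPL5, which also binds the 5S RNA, was among the brightest genes at both stages and fell from 15.96 (15.51 to 16.08) to 14.88 (14.53 to 15.06), a change of -1.03 ± 0.08 (q = 3.23e-13). The shifts of most members were small, and 5 of the 47 tested were lower without overlap, against 4.26% of all genes tested. They also depended on the scaling: after quantile normalization 16 were called lower with a median of -0.20, after subtraction of array medians 35 lower and 3 higher, and with the covariate 37 lower.

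Translation factors leaned the same way with larger shifts in some members: 21 of 38 tested were lower and 11 higher, of 44 (median -0.23), with 19 and 4 under the covariate, and 8 of the lower ones had no overlap. EIF4B, which stimulates the helicase that opens messenger RNA, fell from 13.14 (12.79 to 13.43) to 11.04 (10.74 to 11.88), a change of -2.02 ± 0.10 (q = 4.01e-18). EIF4A2, one of the helicases, fell from 14.63 (14.42 to 14.96) to 13.20 (12.89 to 13.48), a change of -1.47 ± 0.08, and EIF3E, a subunit of the scaffold that joins messenger and ribosome, from 13.05 (12.62 to 13.30) to 11.44 (11.25 to 12.06), a change of -1.45 ± 0.09. For all of them the lowest fetus lay above the highest piglet. The probe-sets of EEF1A1, an elongation factor, were called in both directions. Ribosome biogenesis was even, with 13 of 39 tested genes higher and 14 lower, of 41 (median 0.01), and tRNA synthetases had 6 of 13 higher and 3 lower, of 14. Cytosolic chaperones had 8 of 23 tested genes higher and 8 lower, of 26, and 5 and 9 with the covariate, with HSP90AB1, the constitutive HSP90, among the lower, at 14.46 (14.03 to 14.74) in the fetuses and 13.06 (12.49 to 13.55) in the piglets with a change of -1.41 ± 0.10.

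**Figure D4:**
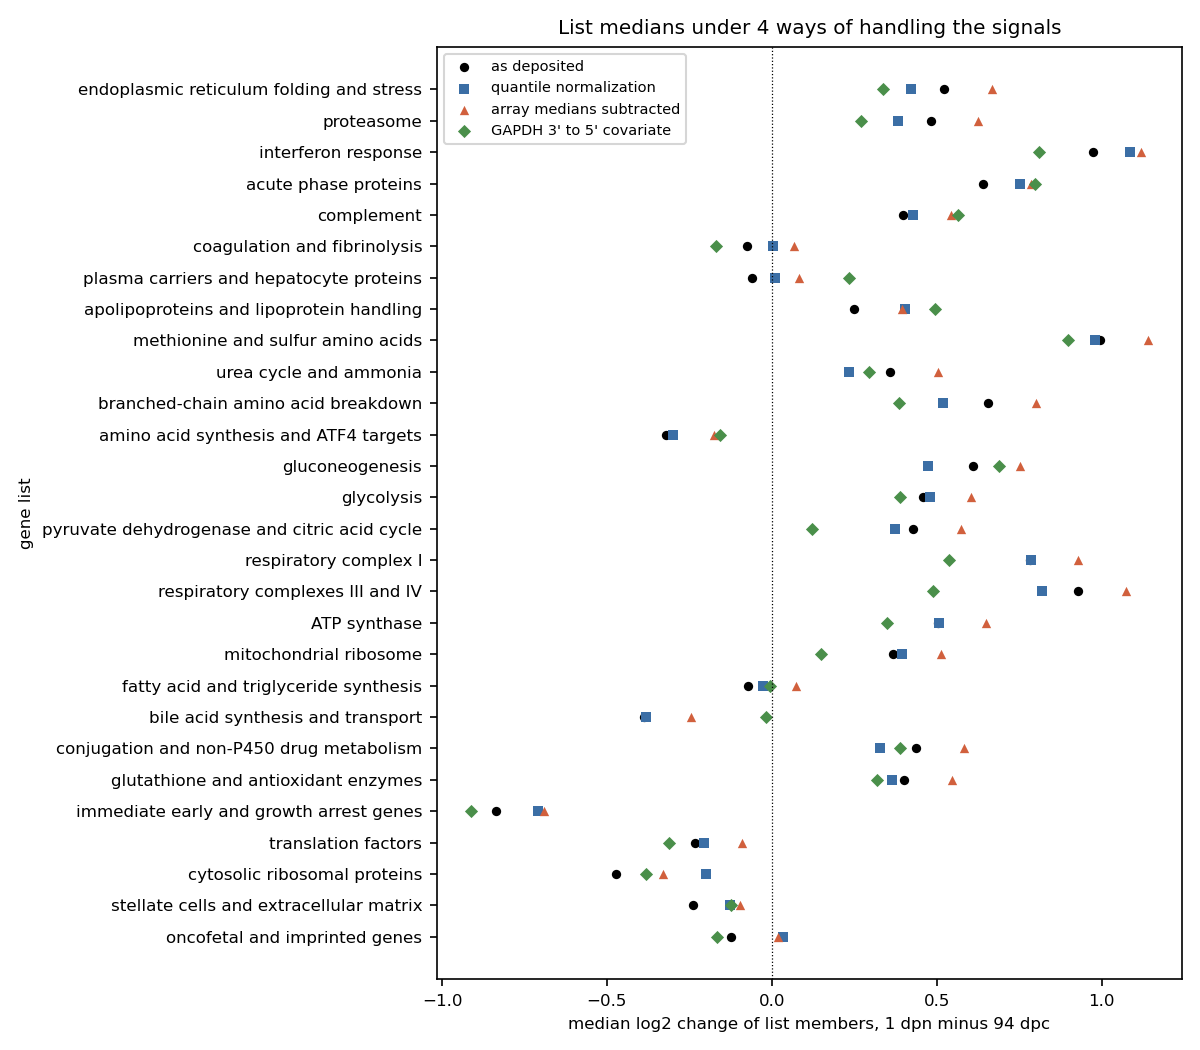
Median log2 change of the members of gene lists, 1 dpn minus 94 dpc, with the signals as deposited, after quantile normalization, after subtraction of array medians and with the GAPDH difference as covariate. The median of the ribosomal proteins lies at -0.47 as deposited and at -0.20 after quantile normalization.

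Cell cycle genes shifted little and depended on the scaling. Of 27 mitosis genes 22 were tested, 6 called higher and 2 lower (median 0.27), with 9 and 0 after quantile normalization and 3 and 1 with the covariate. Without the piglet numbered 29 9 were higher and 1 lower, with a median of 0.44. CCNB1, the cyclin that starts mitosis, spread over more than 2 units at both stages, at 9.57 (8.44 to 10.82) in the fetuses and 9.79 (7.40 to 11.32) in the piglets, and was not called. DNA replication genes were higher in 9 of 27 tested members, near the 33.9% over all genes, and lower in 3, of 29 (median 0.25). The counts were 14 and 2 after subtraction of array medians and 14 and 3 without the piglet numbered 29. With the covariate they were 4 and 3 (median 0.13). PCNA, the replication clamp, was not called (0.39 ± 0.21), but was in 6 of the 30 fits that left out an animal.

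Genes of erythroid cells and of progenitors and megakaryocytes were mostly lower in newborn liver, and those of granulocyte precursors less clearly. The erythroid markers, given here for comparison, were lower in 9 of 10 tested genes of 11 and their summed level lay between 12.00 and 15.17 in the fetuses and between 10.99 and 12.38 in the piglets. AHSP, the chaperone of alpha globin, was one of them (-3.81 ± 0.43). Granulocyte precursor genes were lower in 5 of 9 and higher in 0 (median -0.56), against 35.4% lower over all genes tested. Under both other scalings and with probe-sets averaged 3 were lower. Their summed levels overlapped, at 11.17 to 15.86 in the fetuses and 11.45 to 14.61 in the piglets. NPG4, a protegrin of neutrophil granules, lay at 13.28 (10.25 to 15.48) in the fetuses and 11.35 (10.36 to 13.99) in the piglets, a change of -1.81 ± 0.39, and the piglets lay within the fetal range. Genes of progenitors and megakaryocytes were lower in 6 of 7 tested members and higher in 1, of 9 (median -0.65). The part of these cells in the changes of the other groups was not tested.

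Macrophage genes were higher in 6 of 14 tested members and lower in 1, of 15 (median 0.21), a share of higher members read against the 33.9% over all genes. The counts were 8 and 0 after subtraction of array medians (median 0.36) and 4 and 4 with the covariate. The macrophage list had summed levels of 14.77 to 15.50 in the fetuses and 15.20 to 15.91 in the piglets. CD14, the partner of LBP in sensing lipopolysaccharide, rose from 10.95 (9.38 to 11.43) to 12.66 (11.95 to 13.51), a change of 1.81 ± 0.17 (q = 1.40e-11). Of 16 genes of T and NK cells 2 passed the filters, and of 3 genes of B cells 0 did. Stellate cell and matrix genes were lower in 12 of 23 tested members and higher in 3, of 28 (median -0.24), and the lower calls came to 6 after subtraction of array medians and to 4 with the covariate. PDGFRB, the receptor of pericytes and stellate cells, fell from 11.29 (10.94 to 11.95) to 10.33 (9.71 to 10.87), a change of -1.03 ± 0.12.

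Endothelial genes had 4 of 14 tested members higher and 3 lower, of 15, and 2 and 3 with the covariate, with ENG, a receptor of the TGF-beta family, at 0.88 ± 0.13 and TEK, the angiopoietin receptor, at -0.57 ± 0.15, a call lost with its probe-sets averaged. Cholangiocyte genes had 5 of 10 tested members higher and 2 lower, of 14, and 3 and 2 with the covariate. AQP1, a water channel of bile ducts and of red cells, fell from 10.91 (8.67 to 12.08) to 8.30 (7.47 to 9.33), a change of -2.34 ± 0.27. It had the largest fall of a list with more higher than lower members, and KRT18 had the largest rise (1.11). KRT19, the keratin of bile ducts, was not called (0.38 ± 0.37). Actin and cytoskeleton genes had 8 of 31 tested members higher and 12 lower, of 43 (median -0.049), and 4 and 11 with the covariate. After subtraction of array medians 13 were higher and 9 lower, with a median of 0.097 against 0.14 for all named genes. Lysosomal genes had 12 of 29 tested members higher and 10 lower, of 36.

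Oncofetal and imprinted genes did not move as a group. Of 13 genes, all tested, 2 were called higher and 6 lower (median -0.13). Under the other scalings the median was 0.033 and 0.020, against 0.07 and 0.14 for all named genes. PEG3, a zinc finger gene expressed from the paternal allele, fell from 9.68 (8.81 to 10.40) to 7.38 (5.84 to 8.43), a change of -2.33 ± 0.19 (q = 9.05e-13), and PEG10, a gene derived from a retroelement, from 15.24 (14.83 to 15.64) to 13.58 (12.19 to 14.75), a change of -1.73 ± 0.19. AFP, the fetal counterpart of albumin, was bright at both stages, at 15.81 (15.05 to 16.42) in the fetuses and 15.81 (15.28 to 16.06) in the piglets, with a change of -0.03 ± 0.11 that was not called. NNAT, an imprinted membrane protein, was dim in the fetuses and changed by 1.81 ± 0.39, a call that ended with the stricter filter. NDN, another paternally expressed gene, changed by -0.70 ± 0.09.

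Iron and heme genes had 6 of 14 tested members higher and 4 lower, of 16 (median 0.11), and the steps of heme synthesis moved apart. ALAS1, the first and rate-limiting enzyme outside red cells, rose from 10.41 (9.87 to 10.91) to 12.62 (11.37 to 13.22), a change of 2.13 ± 0.14 (q = 1.07e-14). FECH, which inserts the iron, fell from 12.37 (11.39 to 13.33) to 10.84 (10.50 to 11.08), a change of -1.55 ± 0.17, and PPOX, an earlier step, changed by -1.33 ± 0.14, a call lost with its probe-sets averaged. The erythroid levels above fell between the same stages, and their part in the changes of FECH and PPOX was not tested. HAMP, hepcidin, the hormone that limits iron uptake, ranged widely at both stages, at 11.10 (9.04 to 13.57) in the fetuses and 12.15 (6.54 to 14.92) in the piglets, and was not called. Metal binding and transport genes had 4 of 9 tested members higher and 2 lower, of 10, and the metallothionein MT3 changed by -1.69 ± 0.35.

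The piglets differed more among themselves than the fetuses did. The SD between animals was larger at 1 dpn in 3308 of 4763 tested genes (69.5%), with a median SD of 0.30 in the fetuses and 0.37 in the piglets. It was larger at 1 dpn in 17 of 20 interferon response genes, with median SDs of 0.51 and 0.85, and in 22 of 23 cytosolic chaperones. The opposite order was found for the granulocyte genes, where it was larger in 1 of 9 (1.09 and 0.71), for the immediate early genes, with 5 of 20 (0.60 and 0.48), and for the ribosomal proteins, with 9 of 47 (0.24 and 0.19). These spreads are a description, without a test, and they were not taken again without the piglet numbered 29.

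In the mean over the members of a list the stages were apart for several functions, while most of the 60 lists overlapped. The methionine and sulfur list lay between -0.32 and 0.33 in the fetuses, relative to their mean, and between 1.01 and 1.70 in the piglets. Conjugation lay between -0.27 and 0.35 against 0.47 and 1.23, and acute phase proteins between -0.30 and 0.39 against 0.67 and 1.51. Such means give much weight to members with very large changes. In conjugation the median change of a member was 0.44 and the largest 5.82, and in the acute phase list they were 0.64 and 6.25. Complex I met almost at the edges, with a highest fetus at 0.18 and a lowest piglet at 0.21. For the endoplasmic reticulum list the fetuses lay between -0.10 and 0.15 and the piglets between 0.24 and 1.07. The interferon list overlapped, with fetuses from -0.47 to 0.64 and piglets from 0.21 to 3.11, the last in the piglet numbered 29.

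**Figure D5:**
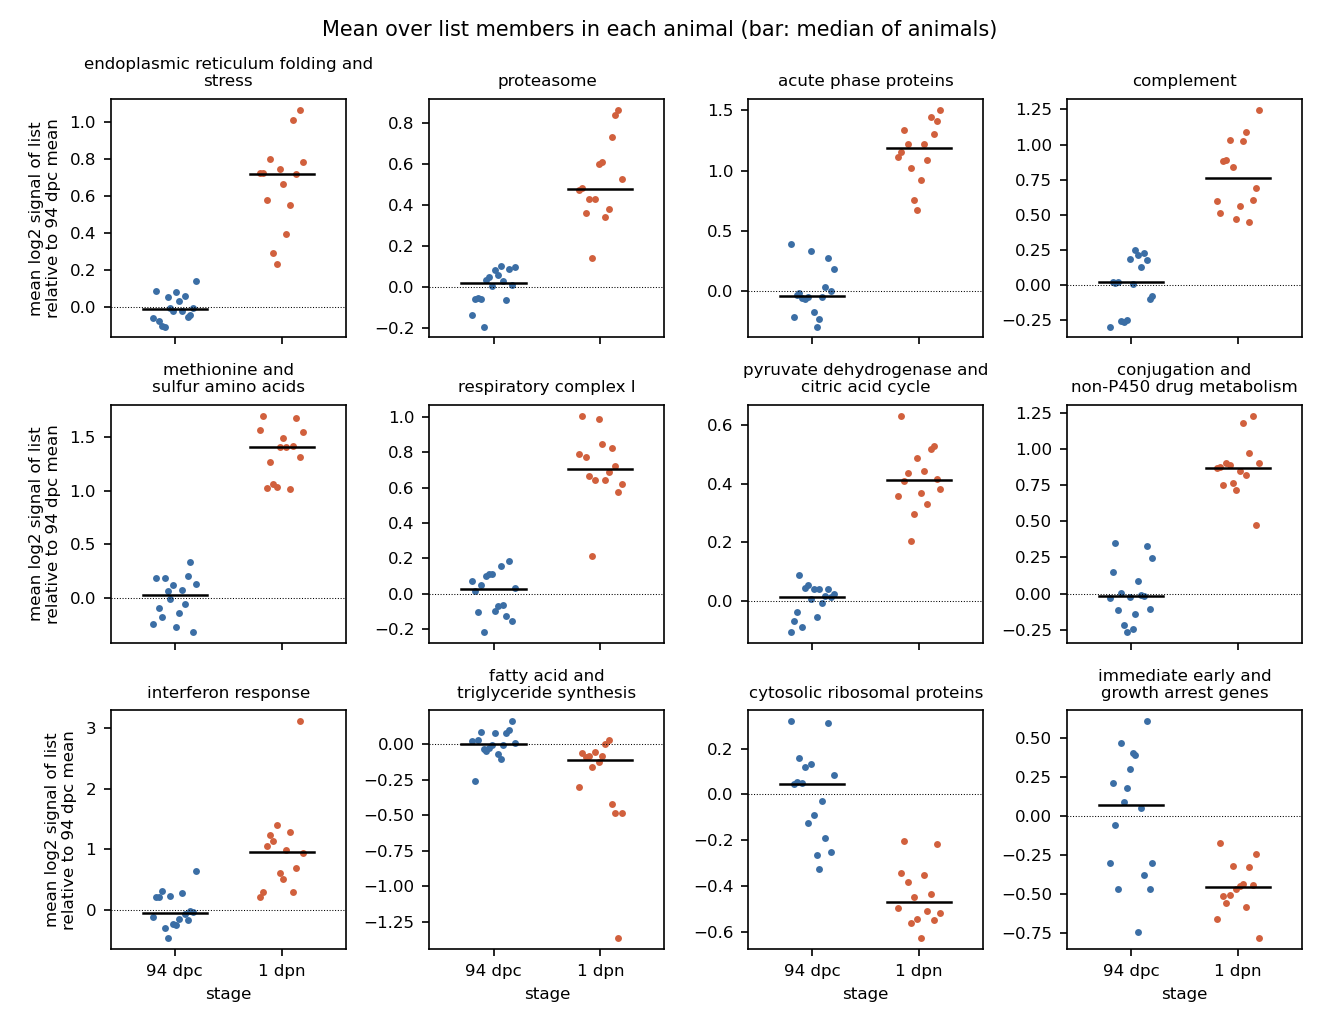
Mean log2 signal over the members of a gene list in each animal relative to the mean at 94 dpc (points), with the median of the animals as a bar. The methionine and sulfur list is apart between the stages, at no more than 0.33 in the fetuses and at least 1.01 in the piglets, and the interferon list overlaps.

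Arrays at 28 and 188 dpn gave the later levels of the same genes, which are set beside those at 1 dpn as a description, without a test. The arrays themselves differed between these stages. The log2 difference between the 3' and the 5' probe-set of beta-actin had means of 1.78, 3.94 and 4.03 at 1, 28 and 188 dpn. The median signal of an array, not in log2, had means of 150, 118 and 106. The part of these differences in the later levels was not tested. Of the 15 genes with the largest rises, 6 had their highest stage mean at 1 dpn, namely GK, HPD, LOC396684, SDF2L1, SULT1E1 and TP53INP2. Of the 15 with the largest falls, 5 had their lowest mean there, namely CXCL12, INSIG1, MSMO1, PNPLA3 and ZNF277. HPD had means of 5.45, 13.58, 10.36 and 11.16 at 94 dpc, 1, 28 and 188 dpn, and SDF2L1 had 9.03, 12.56, 11.43 and 10.49. The median animal mean of the endoplasmic reticulum list was 0.72 at 1 dpn and came to 0.13 and -0.37 at the later stages, and PLIN2 had means of 11.91, 13.29, 10.05 and 9.08.

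Other functions went on rising or stayed up. The methionine and sulfur list had medians of 1.41, 1.71 and 1.94 at 1, 28 and 188 dpn, conjugation 0.87, 1.17 and 1.51, and complement 0.76, 1.90 and 1.72. GNMT had means of 7.32, 11.48, 13.00 and 14.02 over the 4 stages. The interferon list was highest at 28 dpn, with a median of 2.04 against 0.96 at 1 dpn and 0.85 at 188 dpn. AFP, bright in fetuses and newborn piglets alike, had means of 15.75, 15.72, 7.28 and 3.92, and IGF2 had 15.22, 14.67, 10.73 and 10.73.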

How the data were processed

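Liver RNA of 1 animal was hybridised to each GeneChip Porcine Genome Array. The authors deposited 1 globally scaled signal intensity per probe-set and array, for which the submitters' processing notes name GCOS 1.1.1. Detection calls and GC-RMA values were not used here. The number of arrays limits the precision.

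Signals were taken to log2. Of 23999 probe-sets other than controls, 10069 carried 1 gene symbol in the platform annotation, 198 several and 13732 none. The probe-set with the highest mean over all arrays stood for each of 6765 genes. Tests were run on probe-sets with an SD above 0.25 whose signal exceeded the median of its array for 50% or more of the fetuses or of the piglets. Members that passed only at the stage where they were bright had to differ, so counts of tested members describe a list and do not test it. The stages were compared with limma 3.58.1 (R 4.3.3), with stage as the only term, in a two-sided test. Calls needed P and q, after Storey, at or below 0.05. In simulated data with 200 changed probe-sets, 51% of changes of 0.5 and 80% of changes of 1 were called, with 5.07% false calls among those made. With 7354 changed probe-sets, and 11094 probe-sets left for testing by the filters, 80.8% and 92.9% were called, with 3.65% false. The simulated animals were independent, so these shares do not cover siblings that are alike.

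The comparison and the gene lists were chosen with earlier results of these data known, and some genes stand in several lists. A rule gave the 15 largest rises and falls without overlap between the stages, after raising values to the array median. It then gave up to 4 called members of each list with the largest changes, members that define a list, and members called against its direction. The text does not describe every gene that the rule gave. It also names list members outside the rule, such as FOS, MYC, STAT3, PDIA4 and TTR. A list median covers all members on the array, tested or not. Alternatives were quantile normalization, subtraction of array medians, no filter, a filter at the 60th percentile, a floor at the array median, Benjamini-Hochberg adjustment, a fit of all 4 stages, the GAPDH covariate, removal of arrays with outlying 3' to 5' differences or the lowest correlation, and the average of the probe-sets of a gene. Plots were made in Python 3.11.15 with matplotlib 3.10.9.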

Additional observations from a re-analysis of the deposited data

How the results depend on the processing

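No paired analysis was possible because the replicate numbers in the titles run through the whole series and no number is shared between the stages. The counts over all named genes and over all probe-sets stayed within 1.5 times of those reported under each alternative. List counts moved more: in 24 of the 52 lists with 4 or more members called in 1 direction, such a count changed by over 1.5 times under an alternative, in 19 with the covariate, 8 after subtraction of array medians, 7 with probe-sets averaged and 6 after quantile normalization. With the GAPDH covariate, which is itself different between the stages, 1253 named genes were higher and 1333 lower against 1617 and 1684. Of the 373 genes that the naming rule gave, 351 were called, and 249 kept their state in all 11 settings. Apart from genes whose direction turned, the covariate ended 60 calls, the average over probe-sets 37 and subtraction of array medians 29. Quantile normalization ended 28 and the filter at the 60th percentile 19. The genes whose direction turned lost their calls as well. The direction turned with the covariate for ARG1 (-0.022), CRY2 (0.048), NIP7 (-0.16), EEF1E1 (-0.18), EIF2S1 (-0.15) and LYVE1 (-0.27). It turned with the average over probe-sets for GCLC (0.090), NR3C1 (0.16), ACO1 (0.18), NIP7 (-0.18), EEF1A1 (-0.39), CANX (0.14), NPC2 (0.41), B2M (0.019), CFL2 (-0.019) and PER1 (0.27). Of 125 of these genes with several probe-sets, 14 had probe-sets called in both directions, and of all 2261 such genes 108. The cause was not tested.

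Leaving out each of the 30 arrays in turn, and the piglet numbered 29 among them, was chosen after seeing the data. It gave 3073 to 3217 probe-sets higher and 4992 to 5148 lower, 1573 to 1630 genes higher and 1656 to 1695 lower, and 3204 to 3253 of the 3301 called genes kept their calls.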
